A study of Mus musculus with 9 samples.

Results

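Nr4a1, Nr4a2 and Nr4a3 encode the orphan nuclear receptors of the NR4A family, also known as Nur77, Nurr1 and NOR-1. They were taken by name from the genes with a probe set of a single symbol, and they are 3 of 22180 genes measured. Each has 1 such probe set on the array. They were followed on 9 arrays, 3 in each of 3 groups, of a mouse podocyte culture. Podocytes are the filtration epithelium of the kidney glomerulus, and every group had 11 days of differentiation at 37 °C. The control group then received the vehicle DMSO, for a time the labels do not state. The next group had thapsigargin at 2.5 µM, and the last the same thapsigargin plus forskolin at 10 µM, both for 16 hours. Thapsigargin inhibits SERCA, so that calcium leaks out of the endoplasmic reticulum (ER) and ER stress follows, and forskolin makes adenylyl cyclase produce cAMP. The groups include no cells given forskolin without thapsigargin. The labels call the arrays biological replicates and do not say whether cultures or days differed. The p-values therefore measure the spread between these arrays alone, which may be technical. Of strain, genotype and passage of the cells nothing was known here.

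NR4A receptors bind DNA through a domain that is nearly the same in all members. They do so as single molecules on the response element called NBRE, as pairs on other elements or, for Nr4a1 and Nr4a2, with RXR receptors. Their ligand pocket is filled by bulky side chains, so their activity is set largely by how much of the protein is made. The genes are immediate early genes: in many cell types cAMP, acting through protein kinase A and the factor CREB, and calcium, acting through calcineurin, NFAT and MEF2, switch them on within the hour. In steroid-making cells, liver, muscle and neurons they are known as links between hormone or activity signals and gene expression.

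CREB binds the cAMP response element (CRE), whose full form is TGACGTCA and whose half-site is TGACG. Because the members rose together when forskolin was added, their promoters are shown first. The sequences are from RefSeq, build GRCm38.p6, and all 3 members matched. Each run is the 250 bases before an annotated start, 5′ to 3′ on the strand of the gene, at chr15:101266596-101266845 on the plus strand for Nr4a1, chr2:57124004-57124253 on the minus strand for Nr4a2 and chr4:48045055-48045304 on the plus strand for Nr4a3. Capitals mark CRE half-sites on either strand.
Nr4a1: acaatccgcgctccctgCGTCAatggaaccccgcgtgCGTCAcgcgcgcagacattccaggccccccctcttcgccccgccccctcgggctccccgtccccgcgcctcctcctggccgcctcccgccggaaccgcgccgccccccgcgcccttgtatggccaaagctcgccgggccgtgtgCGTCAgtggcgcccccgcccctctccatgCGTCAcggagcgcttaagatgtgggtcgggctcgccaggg
Nr4a2: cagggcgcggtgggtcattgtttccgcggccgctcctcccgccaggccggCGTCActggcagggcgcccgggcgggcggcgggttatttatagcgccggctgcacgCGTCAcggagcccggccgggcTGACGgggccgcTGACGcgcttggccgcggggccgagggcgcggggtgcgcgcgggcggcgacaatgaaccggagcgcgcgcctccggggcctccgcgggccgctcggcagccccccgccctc
Nr4a3: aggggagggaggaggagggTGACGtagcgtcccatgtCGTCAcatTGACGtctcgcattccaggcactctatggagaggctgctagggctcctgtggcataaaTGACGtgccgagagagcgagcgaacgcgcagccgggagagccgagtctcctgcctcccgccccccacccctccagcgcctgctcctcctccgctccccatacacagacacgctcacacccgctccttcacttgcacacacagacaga

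Each of the 3 promoters held 4 half-sites. The search covered both strands of windows of 300 bases, the 250 above and 50 from the start on, and a full CRE counts as 2 half-sites. None of the 3 windows held a full CRE, which 1.79% of the 32851 RefSeq windows of this length did. At least 1 half-site lay in 20.8% of all windows and at least 4 lay in 0.231%. The 3 windows are rich in G and C, at 72.3%, 81.7% and 64.7%, and among the 6218 windows with at least 64.7% G and C the shares were 32.4% and 0.563%. In Nr4a1 the half-sites began 233, 213, 69 and 40 bases before the start, and all 4 lay on the minus strand of the gene. In Nr4a2 they began 200, 144, 123 and 111 bases and in Nr4a3 231, 213, 205 and 147 bases before it, on both strands.

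A MEF2 site, searched under its usual consensus, was found once, in Nr4a2, beginning 167 bases before the start. It occurs in 3.19% of all windows and in 0.531% of those with at least 64.7% G and C. The NBRE that NR4A proteins bind, AAAGGTCA, did not occur in the 3 windows and occurs in 1.51% of all. The CArG box of the factor SRF (1.63% of all windows), the letters CCAAT (37.4%) and the ER stress element, CCAAT and CCACG with 9 bases between them (0.119%), did not occur in them either. A match describes the letters of these windows and not binding, and which annotated start the cells used was not measured.

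**Figure D1:**
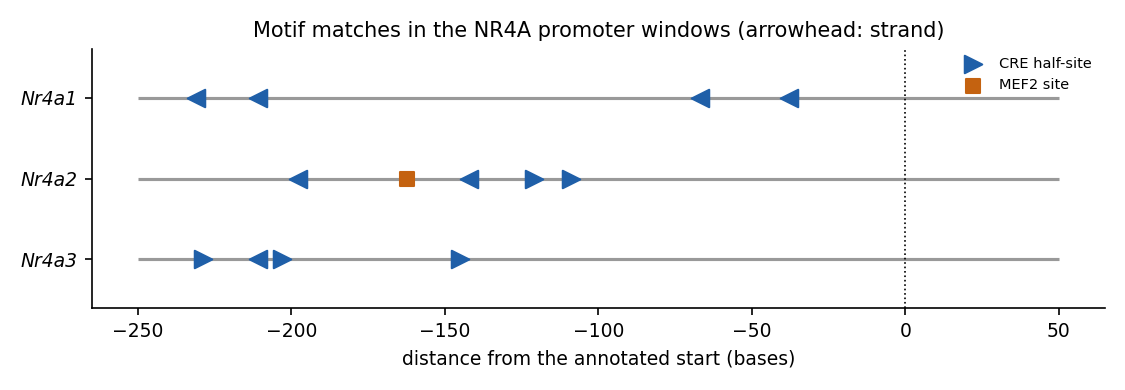
Motif matches in the promoter windows of Nr4a1, Nr4a2 and Nr4a3, by distance in bases from the annotated start (dotted line). Blue arrowheads are CRE half-sites pointing along their strand and the orange square is a MEF2 site; each window holds 4 half-sites, all before the start.

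The values are log2 values per probe set after RMA, a normalization that makes the distributions of the arrays alike. The array medians lay between 5.80 and 5.88 and the lower quartiles between 4.53 and 4.59. Pearson correlations between arrays over all probe sets were 0.989 to 0.993 within groups and 0.966 to 0.992 between groups. Among the podocyte markers 9 of 12 were measured and none lay below the lower quartile on all 3 DMSO arrays. The same held for the 8 tubular and the 7 measured mesangial and pericyte markers, while 1 of 8 endothelial markers, Emcn, and 1 of 8 macrophage markers, the leukocyte gene Ptprc, lay below it. Both were named after their values were seen, and marker levels by this measure do not single out podocytes. The podocyte markers summed to 76.5 to 76.7 on the DMSO arrays, 69.0 to 69.2 with thapsigargin and 66.9 to 67.0 with forskolin added. With thapsigargin 1 of the 9 rose and 5 fell, 66.7% called against 35% of all genes. The mean of Plce1 went from 11.19 to 7.75 and that of Synpo from 9.20 to 6.67, whereas Cd2ap went from 11.33 to 11.57. All 3 were named after their values were seen, and the fall of this sum was mostly that of Plce1 and Synpo. The sums of the 8 tubular markers were 61.9 to 62.5, 52.9 to 53.7 and 53.7 to 54.5, those of the endothelial markers 49.3 to 49.8, 48.3 to 48.9 and 47.6 to 48.2. Of the tubular markers 0 rose and 4 fell with thapsigargin, 50% called against 35%. Their sum fell mostly through Cdh16, from a mean of 11.16 to 7.79, and Aqp1, from 11.71 to 8.46, both named after their values were seen. Whether these shifts have a part in the NR4A results was not tested, and in such bulk RNA fewer cells of a type and less RNA per cell cannot be told apart. Levels of different probe sets are not comparable as amounts of RNA. The level of a gene is therefore compared only with its own level in another group, and a marker sum with the same sum. Ranks and sizes of change across genes describe these probe sets, which can respond with different steepness.

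Nr4a1 fell with thapsigargin and rose far above the control level when forskolin was present. Its log2 values were 8.47, 8.42 and 8.39 on the DMSO arrays, 7.66, 7.86 and 7.69 with thapsigargin and 10.93, 10.96 and 10.96 with both agents. The groups did not overlap, and the order was thapsigargin, DMSO, both agents. The nearest thapsigargin and DMSO arrays lay 0.52 apart, while the widest range within a group was 0.20. Against DMSO, Nr4a1 was 1.61-fold lower with thapsigargin, a log2 change of -0.69 ± 0.06 (limma SE, 3 arrays per group; limma adjusted p = 1.79e-05). Adding forskolin to thapsigargin raised it 9.29-fold, by 3.22 ± 0.06 (limma adjusted p = 1.49e-08). The combined group stood 5.76-fold above DMSO, a log2 change of 2.53 ± 0.06 (limma adjusted p = 7.27e-09).

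Nr4a2 rose at each step. Its log2 values were 7.90, 7.83 and 7.91 with DMSO, 9.71, 9.71 and 9.70 with thapsigargin and 11.06, 11.12 and 11.13 with both agents. The widest range within a group was 0.080, and the nearest arrays of thapsigargin and DMSO lay 1.79 apart, those of the combined group and thapsigargin 1.35 apart. Thapsigargin raised Nr4a2 3.55-fold (log2 change 1.83 ± 0.05, limma adjusted p = 1.03e-08). Forskolin on top of it raised the gene a further 2.63-fold (1.40 ± 0.05, limma adjusted p = 6.77e-07). The combined group was 9.36-fold above DMSO (3.23 ± 0.05, limma adjusted p = 1.06e-09).

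Nr4a3 also rose at both steps, and its larger rise came with forskolin. Its log2 values were 5.12, 5.12 and 5.19 with DMSO, 6.14, 6.11 and 6.14 with thapsigargin and 9.19, 9.20 and 9.21 with both agents. The DMSO values lay between the lower quartile and the median of their arrays, and background was not checked, so folds against DMSO hold on the RMA scale only. No group overlapped another, and the nearest arrays of thapsigargin and DMSO lay 0.91 apart against a widest range of 0.075 within a group. Thapsigargin raised Nr4a3 1.98-fold (log2 change 0.99 ± 0.05, limma adjusted p = 2.56e-07), and forskolin raised it a further 8.38-fold, by 3.07 ± 0.05 (limma adjusted p = 4.56e-09). Against DMSO the combined group was 16.6-fold higher (4.06 ± 0.05, limma adjusted p = 4.1e-10).

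**Figure D2:**
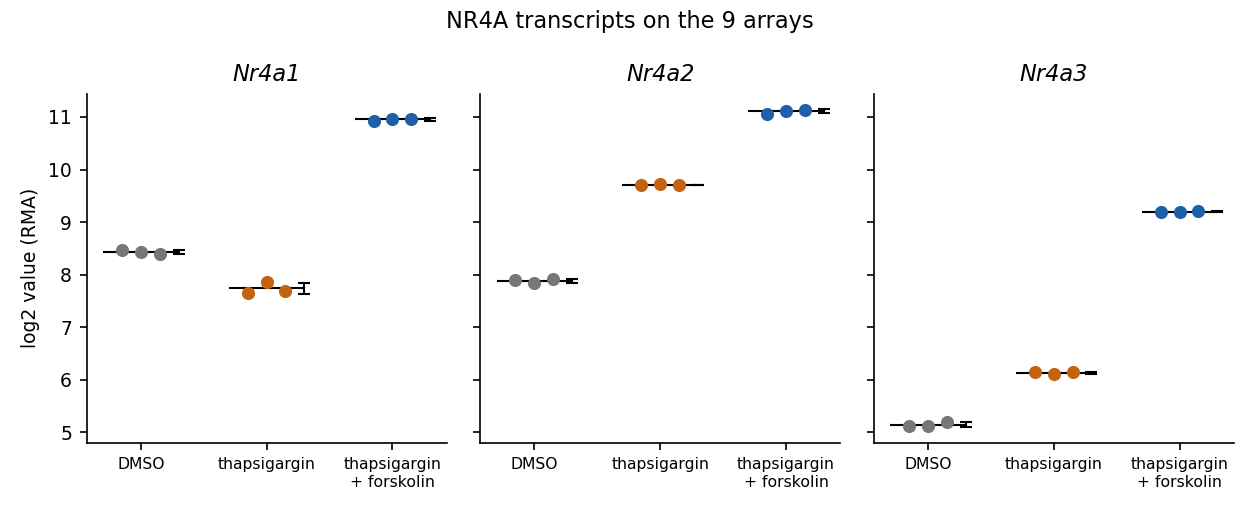
RMA log2 values of Nr4a1, Nr4a2 and Nr4a3 on each of the 9 arrays; points are arrays in the order of their replicate numbers, horizontal lines group means and bars 1 SD of 3 arrays. Nr4a1 with thapsigargin (7.66 to 7.86) lies below DMSO (8.39 to 8.47), whereas Nr4a2 and Nr4a3 rise from each group to the next; heights of different panels are not comparable as amounts of RNA.

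The first question was how the members answered thapsigargin alone. All 3 passed limma with Benjamini-Hochberg adjustment over all genes at 0.05, the threshold for a call throughout: Nr4a2 and Nr4a3 were higher and Nr4a1 was lower. Over all genes 35% were called, 18.2% higher and 16.9% lower, and the groups did not overlap for 43.9%, so a call by itself does not set the members apart in this comparison. By size, Nr4a2 had rank 122 and Nr4a3 rank 698 among the 22180 genes ordered from the largest rise, and Nr4a1 had rank 1205 from the largest fall. The direction of each member was the same on every pair of arrays of the groups compared.

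The second question was what forskolin added. All 3 members were called higher, against 3.7% of all genes higher and 4.17% lower, 7.87% in all. The groups did not overlap for any member, which held for 26.1% of all genes. All 3 also rose by at least 1 on the log2 scale, as 0.271% of genes did when called. Nr4a1 and Nr4a3 had ranks 2 and 3 from the largest rise and Nr4a2 had rank 27. The rise of Nr4a2 started from a level that thapsigargin had already raised, and that of Nr4a1 from one that it had lowered, and both comparisons share the thapsigargin arrays.

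Against DMSO the combined treatment left all 3 members higher. In this comparison 17.9% of genes were called higher and 16.7% lower, 34.5% in all, and the groups did not overlap for 42.6% of them. Nr4a3, Nr4a2 and Nr4a1 had ranks 4, 9 and 32 from the largest rise. The order of the members by log2 change differed between the comparisons: Nr4a2, Nr4a3 and Nr4a1 for thapsigargin, Nr4a1, Nr4a3 and Nr4a2 for forskolin, and Nr4a3, Nr4a2 and Nr4a1 for both together. No test was made between members, because probe sets can respond with different steepness.

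**Figure D3:**
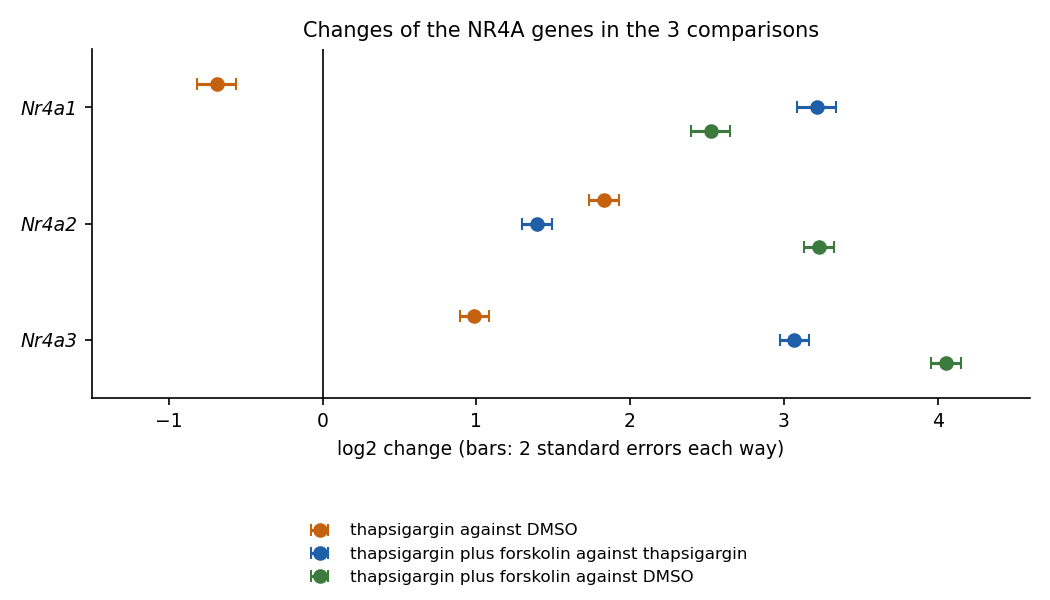
Log2 changes of the NR4A genes in the 3 comparisons, with bars of 2 limma standard errors each way. Only the change of Nr4a1 with thapsigargin alone (-0.69) lies left of 0; the forskolin changes of Nr4a1 and Nr4a3 (3.22 and 3.07) lie to the right of that of Nr4a2 (1.40).

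The other nuclear receptor genes give a frame for these changes. Of 46 others 42 were measured. With forskolin added 4 of them rose and 0 fell, 9.52% called against 7.87% of all genes (3.7% higher), with a median log2 change of 0.03 against -0.0060 over all genes. The vitamin D receptor gene Vdr rose by 2.86 ± 0.05, the clock-linked receptor gene Rora by 0.56 ± 0.08, Nr2f2 (COUP-TFII) by 0.50 ± 0.07 and the clock repressor gene Nr1d1 by 0.43 ± 0.06. Among the 45 measured receptors the NR4A genes thus took ranks 1, 2 and 4, with Vdr at rank 3 and the next, Rora, far below. No receptor gene of the 42 was called lower by limma in this comparison.

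Vdr shared the direction of Nr4a1 at both steps. Its log2 values were 9.82, 9.82 and 9.81 with DMSO, 7.95, 7.95 and 7.87 with thapsigargin and 10.78, 10.79 and 10.77 with both agents. With thapsigargin it fell by 1.89 ± 0.05 on the log2 scale, the largest fall among the 45 receptors. In that comparison 4 of the 42 other receptors rose and 13 fell, 40.5% called against 35% of all genes, with a median change of -0.09 against -0.04 over all genes. After Vdr the largest falls were those of Nr1d1 at -1.42, the mineralocorticoid receptor gene Nr3c2 at -1.41 and the thyroid hormone receptor gene Thra at -1.02. The rises of Nr4a2 and Nr4a3 were the largest among the 45, ahead of Nr2c1 at 0.84, which was named after its value was seen, and Nr4a1 had rank 7 from the largest fall.

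**Figure D4:**
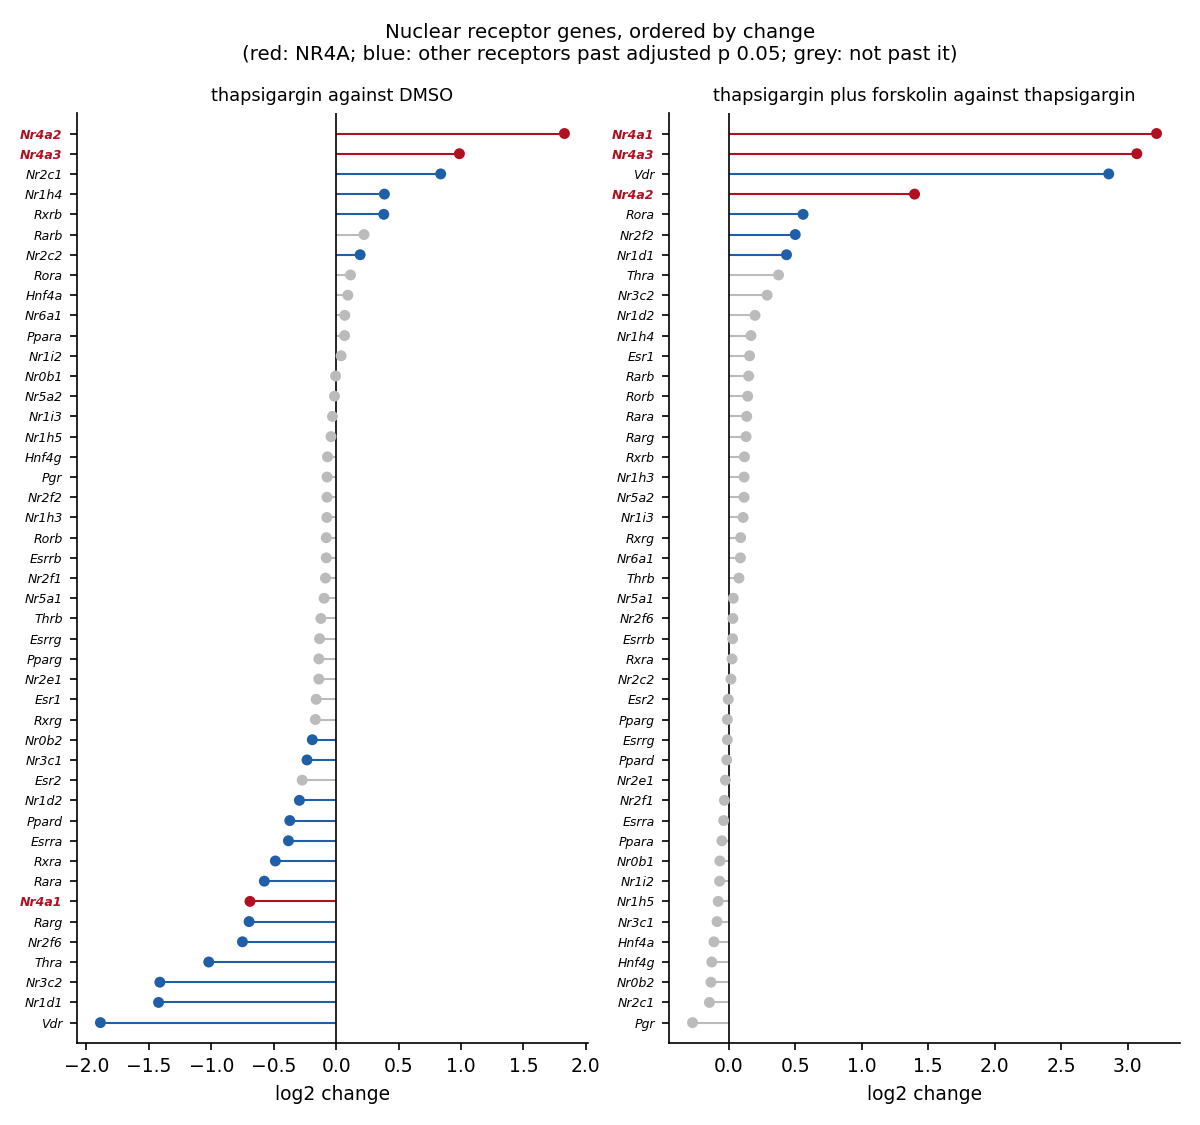
Log2 changes of the 45 measured nuclear receptor genes with thapsigargin against DMSO (left) and with forskolin added to thapsigargin (right), each ordered by change; colours mark the NR4A genes, other called genes and genes not called. On the right Nr4a1, Nr4a3, Vdr and Nr4a2 stand apart at 3.22, 3.07, 2.86 and 1.40, with every other receptor at 0.56 or below; both panels share the thapsigargin arrays.

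The genes that carry the cAMP signal towards CREB were next. Of 18 measured genes of protein kinase A, CREB, its coactivators and the SIK kinases that hold the CRTC coactivators back, 3 rose and 2 fell with forskolin added, 27.8% called against 7.87% of all genes, with a median log2 change of 0.04. Sik1, itself a CREB target, rose by 1.37 ± 0.05, Crem, which encodes a CREB relative with inducible repressor forms, by 0.83 ± 0.05 and Sik3 by 0.47 ± 0.06. Prkar2b, a regulatory subunit of protein kinase A, fell by 0.75 ± 0.10. The other that fell was the kinase inhibitor gene Pkia at -0.24, named after its value was seen, a call that was lost under 8 of the alternatives tried. Creb1 itself, also named after its values were seen, had means of 8.61 with DMSO, 8.78 with thapsigargin and 9.02 with both agents (SD 0.017, 0.051 and 0.11, n = 3 each). It did not pass with thapsigargin alone (limma adjusted p = 0.0655) or with forskolin added (limma adjusted p = 0.0598). Its groups did not overlap, at 8.60 to 8.63 with DMSO, 8.72 to 8.82 with thapsigargin and 8.91 to 9.13 with both agents. The same held for 43.9% of all genes with thapsigargin and 26.1% with forskolin added. With thapsigargin alone 2 rose and 4 fell, 33.3% called against 35% of all genes, among them Sik1 at -0.97, the catalytic subunit gene Prkaca at -0.46 and Pkia at -0.42, while the regulatory subunit gene Prkar2a was at 0.40.

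Of 19 measured genes of MEF2, its histone deacetylase repressors, calcineurin, CaM kinases and NFAT, 6 rose and 6 fell with thapsigargin, 63.2% called against 35% of all genes. The 6 falls were 3 without thapsigargin replicate 2. Most of the 19 had group means above 5.84, the median level of the probe sets. Shares over all genes, here and for the other lists, are not matched for level. A share above 35% therefore does not by itself set such a list apart. The deacetylase genes Hdac7 and Hdac5 fell by 0.91 ± 0.06 and 0.87 ± 0.05, Hdac4 rose by 0.85 ± 0.05 and the calcineurin subunit gene Ppp3cc by 0.73 ± 0.07. With forskolin added 3 rose and 2 fell, 26.3% called against 7.87%: Camk2d was at 0.51, Hdac5 at 0.41, the calcineurin inhibitor gene Rcan1 at -0.45 and Hdac7 at -0.35. The smallest of the 3 rises was that of Hdac4 at 0.20, named after its value was seen, whose call was lost under 11 alternatives. Of the SRF and ERK genes 6 of 10 were measured, and Srf was at 0.40 with thapsigargin and at -0.39 with forskolin added, the only call there. That made 50% called with thapsigargin and 16.7% with forskolin added, against 35% and 7.87% of all genes. Elk3 was at -0.74 and Elk1 at 0.25 with thapsigargin.

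Other early genes of cAMP signalling were followed as a list of 29, of which 27 were measured. With forskolin added 11 rose and 2 fell, or 40.7% higher against 3.7% of all genes, with a median log2 change of 0.18. Rgs2, which encodes a brake on G-protein signalling, rose from 6.90, 6.74 and 6.89 to 9.31, 9.36 and 9.31, a change of 2.48 ± 0.12. After Rgs2 came Sik1, the cyclooxygenase gene Ptgs2 at 0.95 ± 0.06 and Crem, so that Nr4a1 and Nr4a3 moved more than any of the 27. The genes that fell were Egr1 at -0.67 and Ier2 at -0.62, both named after their values were seen. Sik1 and Crem also belong to the list of genes that carry the cAMP signal towards CREB, so their rises are counted in both. The list of early genes was assembled with earlier results of these data known and is no independent support.

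The classical early gene Fos did not follow the NR4A genes when forskolin was added. Its log2 values were 9.47, 9.32 and 9.35 with DMSO, 6.90, 6.92 and 6.79 with thapsigargin and 6.99, 7.04 and 6.99 with both agents. With thapsigargin it fell by 2.51 ± 0.06, and the difference that forskolin added, 0.14 ± 0.06, did not pass (limma adjusted p = 0.272). With thapsigargin alone 10 of the 27 rose and 13 fell, where 18.2% and 16.9% of all genes did. The stress-linked factor gene Atf3 rose by 3.17 ± 0.07, the repressor gene Nfil3 by 2.27 ± 0.12 and Ptgs2 by 2.08 ± 0.06. With forskolin added, Atf3 differed by 0.04 ± 0.07 and Nfil3 by -0.05 ± 0.12, neither called.

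Sik1 had the same direction as Nr4a1 at both steps, and Rgs2 and Ptgs2 the same as Nr4a2 and Nr4a3. The values of Sik1 were 9.84, 9.85 and 9.84 with DMSO, 8.90, 8.86 and 8.88 with thapsigargin and 10.30, 10.29 and 10.17 with both agents. Of the 22 early genes with a RefSeq promoter window 18 held at least 1 CRE half-site, as did 12 of 40 other nuclear receptors and 6228 of all 27025 genes with a window, or 23.0%. Windows with 3 or more belonged to 3 early genes, 1 other receptor and 316 of all genes. Of the genes most correlated with the members, described below, 10 had a window and 5 of these held a half-site. The early genes were listed for their link to cAMP, and these shares are not matched for G and C. Among windows with at least 64.7% G and C the share with a half-site was 32.4%.

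**Figure D5:**
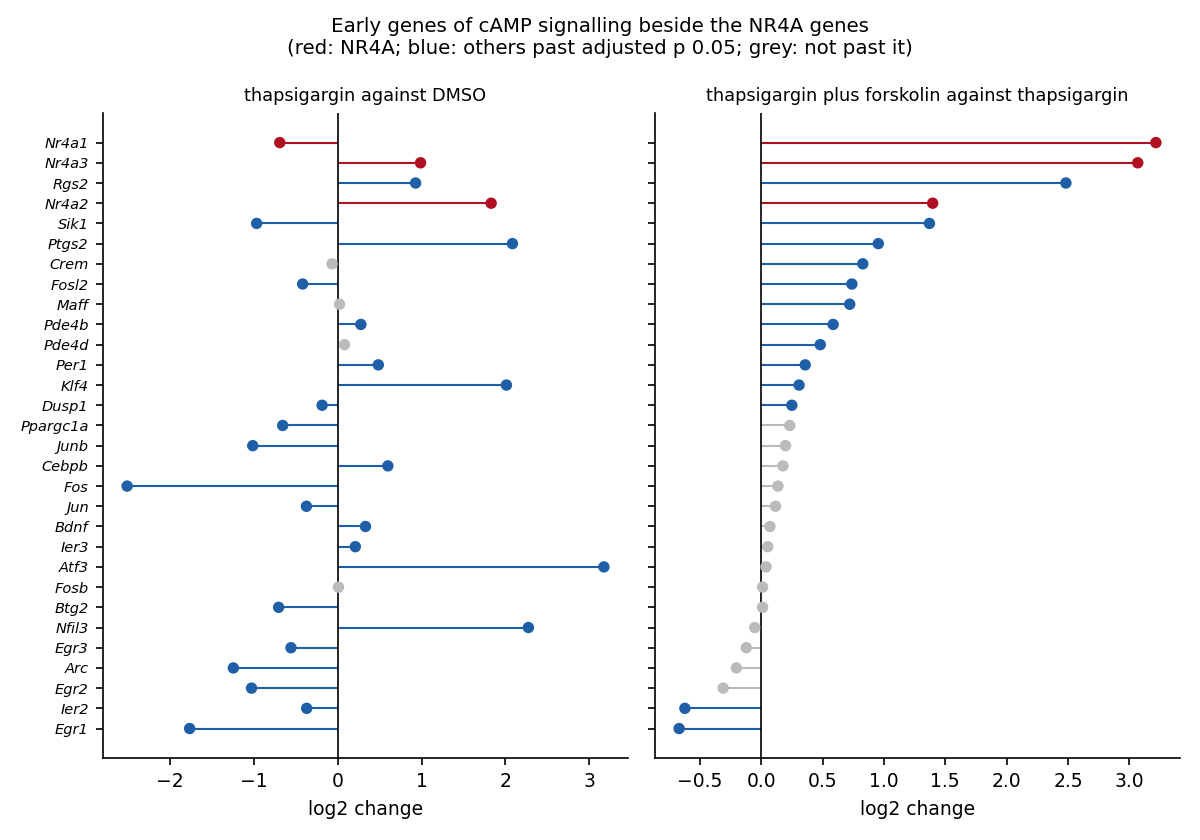
Log2 changes of the 27 measured early genes of cAMP signalling and the NR4A genes with thapsigargin against DMSO (left) and with forskolin added to thapsigargin (right), in 1 order set by the right panel; colours mark the NR4A genes, other called genes and genes not called. Nr4a1 and Nr4a3 are at the top on the right, followed by Rgs2 at 2.48, while Fos at -2.51 and Atf3 at 3.17 on the left stay near 0 on the right.

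Partners and coregulators of NR4A proteins were measured for 14 of 17. With thapsigargin 8 rose and 3 fell, 78.6% called against 35% of all genes, and with forskolin added 1 rose and 1 fell, 14.3% called against 7.87%. Most of the 14 had group means above 5.84, the median level of the probe sets, and the shares over all genes are not matched for level. The RXR genes of this list were also counted among the other nuclear receptors. With thapsigargin the corepressor genes Nrip1 and Rcor1 rose by 0.67 ± 0.08 and 0.62 ± 0.06, the coactivator gene Ncoa1 by 0.63 ± 0.08, and the partner receptor gene Rxra fell by 0.49 ± 0.06. With forskolin Fhl2, which encodes a LIM-domain cofactor, fell by 0.35 ± 0.05 and Bcl2, whose product can be bound by Nr4a1 protein, was at 0.25. The call of Bcl2 was lost under 8 alternatives, such as leaving out thapsigargin replicate 1 (limma adjusted p = 0.103).

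Genes reported as NR4A targets in other tissues were called about as often as all genes with forskolin added. Of 28 such genes 26 were measured. With forskolin added 1 rose and 1 fell, 7.69% called against 7.87% of all genes. Many of the 26 had means below 5.84, the median level of the probe sets, in every group, and others lay above it. Cd36 had group means of 3.43, 3.48 and 3.41 in the order DMSO, thapsigargin, both agents, below the lower quartiles of the arrays. It was named after its values were seen. Background was not checked, and genes this dim may be silent and could then hardly be called. The shares called in this list therefore say little about NR4A targets. The cyclin gene Ccnd1 fell by 0.78 ± 0.06 and Lpin1, which encodes a phosphatidate phosphatase, was at 0.34, a call that was lost under 13 alternatives. With thapsigargin 1 rose and 5 fell, 23.1% called against 35%: the adhesion gene Vcam1 fell by 1.99 ± 0.15, Lpin1 by 0.98 ± 0.09 and Ccnd1 by 0.66 ± 0.06, and Skp2, which encodes a ubiquitin ligase subunit, rose by 0.71 ± 0.08. The 5 falls of this list were 3 under 11 alternatives, among them leaving out DMSO replicate 1, thapsigargin replicate 1 or 3, or any combined replicate. Star, the cholesterol transporter gene of steroid synthesis, differed by 0.29 ± 0.11 with forskolin added and did not pass (limma adjusted p = 0.175); it was named after its value was seen.

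The genes whose values ran most like those of each member were found by Pearson correlation over the 9 arrays. The search took genes with at least 1 group mean above 5.84, the median level of the probe sets. It passed over clone and predicted gene names, so a gene of such a name may correlate more. These correlations are set mostly by the 3 group means and are a description. For Nr4a1 they were the kinase gene Sgk1 (0.996), the ubiquitin ligase gene Sh3rf1 (0.995), the adhesion gene Mcam (0.995), the peptide transporter gene Slc15a2 (0.989) and the potassium channel gene Kcnk1 (0.987). All 5 had lower means with thapsigargin than with DMSO and their highest means with both agents. The thapsigargin change of Sh3rf1 was only -0.15, and its call was lost under 13 alternatives (largest limma adjusted p = 0.134). Sgk1 had group means of 8.64, 8.32 and 9.47 in the order DMSO, thapsigargin, both agents, and Mcam 8.77, 8.04 and 10.62. Mcam was also in the list of mesangial and pericyte markers, of which 7 of 8 were measured and none lay below the lower quartile on all arrays of a group. These markers summed to 49.4 to 49.8 with DMSO, 47.0 to 47.4 with thapsigargin and 49.7 to 50.6 with both agents. With forskolin added 2 of the 7 rose and 0 fell, 28.6% called against 7.87% of all genes, with a median log2 change of 0.08. Mcam alone rose by 2.58, so the rise of this sum was mostly that of Mcam. The 8 macrophage markers summed to 48.0 to 49.2, 46.4 to 47.1 and 48.4 to 48.6 in the order DMSO, thapsigargin, both agents, lowest with thapsigargin too. The part of either list in the result was not tested.

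For Nr4a2 the most similar genes were the autophagy receptor gene Nbr1 (0.998), the homeobox gene Irx3 (0.998), Dock5, which encodes an activator of the GTPase Rac (0.997), the SMAD corepressor gene Skil (0.997) and the xanthine dehydrogenase gene Xdh (0.996). They rose at both steps in smaller amounts than Nr4a2: Irx3 had group means of 8.32, 9.05 and 9.57, and Nbr1 9.97, 10.25 and 10.49. The forskolin call of Nbr1 was lost without thapsigargin replicate 2 or combined replicate 2 (largest limma adjusted p = 0.0545). For Nr4a3 they were Tnfrsf21, which encodes a death receptor (0.998), the spermine oxidase gene Smox (0.997), the MAP kinase phosphatase gene Dusp10 (0.996), the neuropeptide precursor gene Vgf (0.996) and Camk2n2, which encodes an inhibitor of CaM kinase II (0.996). Vgf had group means of 7.05, 7.56 and 9.48 and Camk2n2 of 8.04, 8.64 and 10.09. Among the members, the correlation was 0.934 for Nr4a2 and Nr4a3, 0.903 for Nr4a1 and Nr4a3 and 0.692 for Nr4a1 and Nr4a2.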

How the data were processed

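RNA of 9 samples was measured on single-colour arrays. For each probe set and array the authors deposited a log2 value; affy and RMA are named in the submitters' processing notes, their versions and the build in no source used here. RMA makes array distributions alike, so a shift shared by most genes cannot be seen. Of 41345 probe sets 23521 have 1 symbol, 1814 several and 16010 none in the annotation used, and 23328 of the former matched RefSeq (GRCm38.p6) by Entrez ID. Each of 22180 genes was represented by its brightest probe set (mean of the 9 arrays). The number of arrays limits the precision.

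Group means over all arrays were fitted at once (limma 3.58.1, R 4.3.3, 6 residual degrees of freedom, no covariate), with eBayes and Benjamini-Hochberg adjustment over all genes; the procedure was tested on simulated data. Members and lists were chosen with earlier results of these data known. Genes named are the members and the called members of each list with the largest change, at most 4 each in the thapsigargin and the forskolin comparison, or the 2 brightest if no member was called. Also named are the 5 genes most correlated with each member after the filters on level and on clone or predicted names. Plots were made in Python 3.11.15 (matplotlib 3.10.9).

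Alternatives were the 6 arrays compared alone, an intensity trend with robust prior, array weights, centring, repeated quantile normalization, a filter on dim genes, other probe set rules, the replicate number as a block, a component of within-group variation as covariate, and arrays left out.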

Additional observations from a re-analysis of the deposited data

How the results depend on the processing

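The 9 member results kept direction and call under all 20 alternatives run for each, with limma adjusted p of at most 0.000423. Several alternatives leave a member's log2 change as it is by design and alter only its spread or adjustment. These are the compared arrays alone, the trend prior, the block, the covariate, the probe set rules and the filter on dim genes. Leaving out an array of the group not compared does the same. Direction was fixed in advance under these. The thapsigargin change ranged from -0.76 to -0.65 for Nr4a1, 1.76 to 1.87 for Nr4a2 and 0.97 to 1.03 for Nr4a3, and the change with forskolin added from 3.18 to 3.28, 1.36 to 1.42 and 3.03 to 3.07. Of the counts over all genes, that of lower genes with forskolin added, 924, moved by over 1.5 times: it was 586 without thapsigargin replicate 1, 568 without thapsigargin replicate 3 and 600 without combined replicate 2, and 568 to 1101 over all single arrays left out. The labels tie same-numbered arrays together by number alone, and the main fit used no pairing. Deviations of same-numbered arrays correlated over 0.1 in 4 of 9 pairs (-0.0747 to 0.253). These were every pair of replicate 3 (0.222, 0.231 and 0.191) and replicate 1 of DMSO with combined replicate 1 (0.253). Whether the replicate 3 arrays shared a batch cannot be told from the labels. With the replicate block the forskolin comparison gave 770 higher and 812 lower genes, and Nr4a1 changed by 3.22 (limma adjusted p = 1.78e-06). List counts were rerun under the same alternatives after seeing the data: the 11 early genes higher with forskolin were 8 to 11, fewest without thapsigargin replicate 3, and the 4 other receptors higher were 4 to 6. Of these list counts 30 moved by over 1.5 times and 610 did not; among the moved, the cAMP and CREB genes higher with forskolin went from 3 to 5 and the reported targets lower with thapsigargin from 5 to 3. Of the other named genes' results 71 lost and 20 gained a call under an alternative, 3029 did neither and 0 reversed. Background was not checked for any member.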
